A study of Mus musculus with 29 samples.

Results

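The glypicans and syndecans are the cell surface proteins that carry heparan sulfate chains, and all 10 mouse genes of the family were described here: Gpc1, Gpc2, Gpc3, Gpc4, Gpc5, Gpc6, Sdc1, Sdc2, Sdc3 and Sdc4. Their rows were picked out by gene symbol, and each of the 10 symbols matched 1 of the 55401 rows of the count matrices. The family itself was chosen with earlier results of these data known. RNA was sequenced from peribiliary mesenchymal cells sorted from the mouse common bile duct, about 1000 cells from each animal, in 29 libraries. Cells were marked by a tamoxifen-inducible Cre recombinase (CreERT2) that switches on a tdTomato reporter at Rosa26, so each library holds cells in which the Gli1 or the Pdgfra promoter drove Cre. Gli1:CreERT2 animals were 4 days after bile duct ligation (4d BDL, 3 animals) or uninjured (3 animals). The labels name no sham operation. Pdgfra:CreERT2 animals carried SmoFF (4), SmoM2 (3), Ctnnb1FF (3), Gli2FF (2), Gli3FF (2) or both Gli2FF and Gli3FF (4, Gli2FFGli3FF), or were wild type (5) at those alleles. The FF alleles are read here as floxed, so that Cre removes part of the gene. SmoM2 is an activated form of Smoothened, the transducer of Hedgehog signals. All Pdgfra groups share the Cre and the reporter, and their labels name no injury. The labels give no age.

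Each of these proteins is a core protein to which long sulfated sugar chains are attached. Glypicans hang on the outer membrane by a lipid anchor, whereas syndecans cross the membrane and reach the cytoskeleton with a short tail. The chains bind Hedgehog, Wnt, FGF and other ligands and can hold them at, or keep them from, their receptors. GPC3 binds Hedgehog in competition with the receptor Patched, and its loss in people causes an overgrowth syndrome. In the liver, syndecan-1 is best known from hepatocytes and biliary epithelium, and glypican-3 from fetal liver and liver cancer.

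Gpc3 and Sdc1 had the largest called fall and the largest called rise of the family after ligation, and the DNA upstream of their starts is shown for that reason. Promoter sequences were taken from RefSeq (GRCm38.p6), whose table matched 7 of the 10 genes (Gpc2, Gpc3, Gpc4, Gpc5, Sdc1, Sdc3 and Sdc4, not Gpc1, Gpc6 or Sdc2). The Gpc3 stretch is chrX:52613975-52614224 on the minus strand (250 bases), and the Sdc1 stretch is chr12:8771146-8771322 on the plus strand (177 bases, ending just before the annotated gene). Capitals mark the GC box GGGCGG on either strand.
Gpc3: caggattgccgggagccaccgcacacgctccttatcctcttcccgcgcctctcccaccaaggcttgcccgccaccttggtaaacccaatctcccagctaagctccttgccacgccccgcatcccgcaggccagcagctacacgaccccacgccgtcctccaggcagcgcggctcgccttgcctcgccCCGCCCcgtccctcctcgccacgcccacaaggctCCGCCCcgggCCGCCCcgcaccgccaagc
Sdc1: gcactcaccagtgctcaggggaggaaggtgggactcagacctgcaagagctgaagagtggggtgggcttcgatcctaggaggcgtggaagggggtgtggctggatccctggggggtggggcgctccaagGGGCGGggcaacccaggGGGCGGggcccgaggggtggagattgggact

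GGGCGG was found on either strand in the 250 bases before the RefSeq start of all 7 matched genes, and in 32.7% of 32851 mouse promoter windows of the same length. In the GENCODE M21 annotation the windows of Gpc4 and Sdc4 lie inside the gene, and those of Gpc2 and Sdc1 partly so. The Gli consensus TGGGTGGTC was in 0 of the 7 and in 0.225% of all promoters, and its last 8 letters, GGGTGGTC, were in 0 of the 7 and in 0.703%. The TCF/LEF motif CTTTGAA was in 0 of the 7 and in 4.46% of all promoters. TATAAA was in 1 of the 7 (Gpc5), against 12.4% of all promoters. A match describes letters only, and a motif that was not found is absent from this window and no more.

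Total counts were 15021796 to 38301189 per library. A ribosomal RNA locus took 2.37% to 50.03% of the counts, on average 44.6% in Gli2FFGli3FF, 31.8% in Gli3FF, 30.7% in Ctnnb1FF and 20.6% in wild type libraries. Genes detected numbered 15892 to 17726 in Ctnnb1FF libraries, against 21127 to 24483 in wild type libraries. Smo averaged 8.29 ± 1.04 counts scaled to library size (CPM) in SmoFF libraries and 30.7 ± 6.24 CPM in wild type libraries. Ctnnb1 averaged 48.3 ± 5.75 CPM in Ctnnb1FF libraries and 60.7 ± 5.60 CPM in wild type libraries, and this difference did not pass the test (adjusted p = 0.108). Gli2 averaged 10.4 ± 4.30 CPM in Gli2FF and 5.28 ± 2.43 CPM in Gli2FFGli3FF libraries, against 18.4 ± 3.38 CPM in wild type libraries; the first difference did not pass the test (adjusted p = 0.399). Gli3 averaged 14.4 ± 1.82 CPM in Gli3FF and 6.34 ± 2.26 CPM in Gli2FFGli3FF libraries, against 37.8 ± 6.65 CPM in wild type libraries. Xist, the RNA of the inactive X chromosome, was low (under 5 CPM of the total counts, not scaled) in 3 of 3 SmoM2, 2 of 4 SmoFF, 1 of 2 Gli2FF, 1 of 2 Gli3FF, 1 of 4 Gli2FFGli3FF and 5 of 5 wild type libraries, and above that level in the rest. The low Gli2FFGli3FF library, replicate 4, was at 4.58 CPM, just under that cut. The other low libraries were at 0.466 CPM or less, and the other Gli2FFGli3FF libraries at 10.1 to 32.0 CPM. Summed fibroblast markers were 54373 to 56199.7 CPM after ligation and 26107 to 30462 CPM in uninjured Gli1 libraries.

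Gpc3, Sdc4 and Sdc2 carried most of the family's RNA. Levels between genes are compared per kilobase of exon, as CPM per kb. Over the 29 libraries the median was 111 CPM per kb for Gpc3, 96.1 for Sdc4, 73.2 for Sdc2, 14.5 for Gpc4, 6.30 for Gpc6, 4.28 for Sdc1, 1.02 for Gpc1 and 0.879 for Sdc3. Gpc3 stood at the 98.8th percentile of 21534 protein-coding genes on this scale, Sdc4 at the 98.6th and Sdc2 at the 98.0th. Gpc2 and Gpc5 were at or near 0. Gpc2 had 226 counts in 17 of the 29 libraries, and Gpc5, a glypican best known from brain and kidney development, had 27 counts in 2 libraries, of which 26 came from replicate 3 of Gli2FFGli3FF.

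The members differed in how far their group means spread in CPM. The highest of the 9 group means over the lowest was 21.98 for Sdc1, 15.9 for Gpc1, 9.31 for Sdc3, 8.26 for Gpc3, 6.08 for Gpc6, 4.92 for Gpc4, 3.78 for Sdc2 and 1.94 for Sdc4. Sdc4, the syndecan that joins integrins at focal adhesions, was thus the member with the narrowest range of these 8 (all but Gpc2 and Gpc5).

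**Figure D1:**
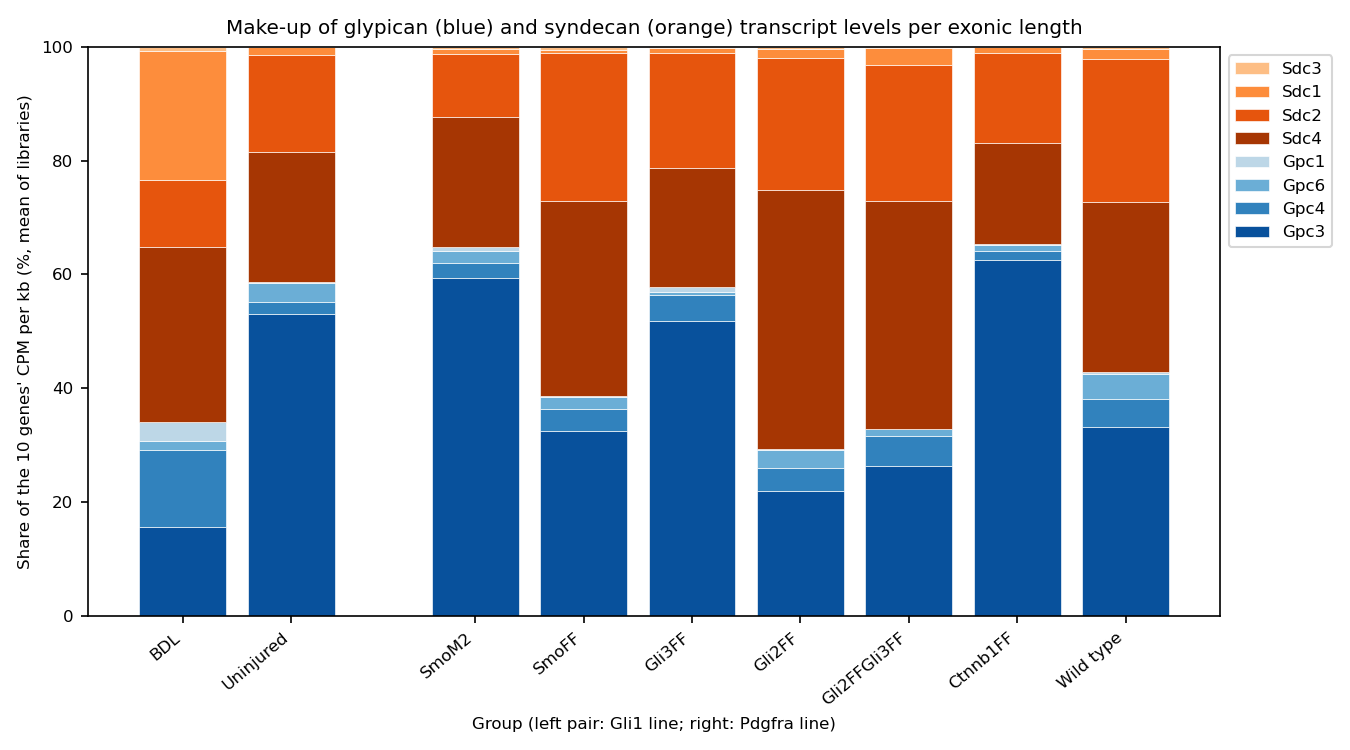
Share of the family's summed CPM per kb held by each glypican (blue) and syndecan (orange), one stacked bar per group. Glypicans made up 65.3% of the sum in Ctnnb1FF and 64.8% in SmoM2 libraries, against 42.8% in wild type libraries, and 34.0% after ligation, against 58.7% in uninjured libraries.

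The make-up of the family by group followed Gpc3. Gpc3 held 15.6% of the family's summed CPM per kb after ligation, against 53.0% in uninjured Gli1 libraries. Sdc1 held 22.7% after ligation, against 1.36% in uninjured libraries. The sum itself was 217 CPM per kb after ligation and 494 CPM per kb in uninjured libraries, and 472 CPM per kb in SmoM2 and 311 CPM per kb in wild type Pdgfra libraries. The stacked bars show that glypicans outweighed syndecans in the uninjured, SmoM2, Ctnnb1FF and Gli3FF groups, and syndecans outweighed glypicans in the other 5 groups.

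The RNA of the core proteins differed between ligated and uninjured Gli1-lineage libraries. The lipid-anchored Gpc3 and Gpc6 and the transmembrane Sdc2 were lower after ligation, and Sdc1 and Gpc4 were higher. A gene was called changed at an adjusted p under 0.05 (edgeR's quasi-likelihood test, Benjamini-Hochberg adjustment over all genes tested). Of the 8 members with enough counts to be tested, 5 were called, 2 higher and 3 lower, against 13.6% of the 17150 genes tested (7.77% higher and 5.8% lower). In bulk samples, fewer cells of a type and less RNA per cell cannot be told apart.

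Among the glypicans, Gpc3 (chrX:52272426-52613950, minus strand) was at 81.9, 80.0 and 111 CPM after ligation, against 606, 777 and 731 CPM in uninjured libraries. Every ligated animal lay far below every uninjured one. The mean was 90.9 ± 17.2 CPM after ligation and 705 ± 88.3 CPM in uninjured libraries (SD, n = 3 each), a log2 fold change of -2.995 (SE 0.21, edgeR adjusted p = 0.000924), or 7.97-fold lower.

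Gpc6 (chr14:116925315-117976544, plus strand), a glypican known in mice for promoting bone growth through Hedgehog signalling, was at 18.5, 26.5 and 15.3 CPM after ligation, against 94.2, 119 and 94.9 CPM in uninjured libraries. The groups did not overlap, and the log2 fold change was -2.39 (SE 0.26, edgeR adjusted p = 0.00435). Gpc4 (chrX:52053021-52165252, minus strand), which lies 107173 bp from Gpc3 on the same strand, moved the other way. It was at 59.8, 87.8 and 84.7 CPM after ligation, against 15.9, 38.4 and 31.4 CPM in uninjured libraries, with no overlap. Its log2 fold change was 1.40 (SE 0.35, edgeR adjusted p = 0.0477). That call was lost in 8 of 13 alternatives, with adjusted p up to 0.169; among them were each of the fits without BDL replicate 1 (0.0815), 2 (0.169) or 3 (0.154), without uninjured replicate 2 (0.0531) or 3 (0.0745), and the fit with a replicate block (0.0618).

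Gpc1, a glypican of brain and muscle that also binds FGFs, was at 20.5, 39.5 and 51.1 CPM after ligation, against 4.40, 1.94 and 12.2 CPM in uninjured libraries. The groups did not overlap, but the uninjured values spread widely, and the log2 fold change of 2.55 (SE 0.71) did not pass the test (edgeR adjusted p = 0.0636). Its exons overlap those of Ankmy1 on the other strand, and counting by strand is not given in the sources used here, so reads of the pair may be mixed.

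Sdc1 (chr12:8771323-8793715, plus strand) was at 232, 148 and 185 CPM after ligation, against 30.2, 28.4 and 16.0 CPM in uninjured libraries. The lowest ligated library lay above the highest uninjured one by a wide margin, with a log2 fold change of 2.88 (SE 0.32, edgeR adjusted p = 0.00467), or 7.37-fold higher. Of the 9 groups in the series, the ligated one had the highest Sdc1; its mean of 188 CPM was followed by 33.7 CPM in Gli2FFGli3FF, with no overlap.

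Sdc2 (chr15:32920723-33034935, plus strand), the syndecan best known from fibroblasts and other mesenchymal cells, was at 76.2, 96.8 and 94.6 CPM after ligation, against 227, 319 and 357 CPM in uninjured libraries. The ligated animals lay close together and below all others, with a log2 fold change of -1.79 (SE 0.22, edgeR adjusted p = 0.00596). Sdc4 was at 203, 147 and 161 CPM after ligation, against 275, 239 and 345 CPM in uninjured libraries. The groups did not overlap, but the log2 fold change of -0.78 (SE 0.21) did not pass the test (edgeR adjusted p = 0.0536). Sdc3, the syndecan best known from neurons, was at 13.1, 9.25 and 5.27 CPM after ligation, against 0, 2.17 and 1.73 CPM in uninjured libraries. Here too the groups did not overlap, and the log2 fold change of 2.78 (SE 1.42) did not pass the test (edgeR adjusted p = 0.281). In all, 8 of 8 members tested had libraries that did not overlap between the groups, against 37.6% of all genes tested.

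Markers listed for other cell types differed after ligation as well. The 8 mesothelium markers summed to 36.2 to 53.9 CPM after ligation, against 219 to 668 CPM in uninjured libraries, and 7 of the 8 were called lower. The 8 smooth muscle and pericyte markers summed to 3343 to 3971 CPM after ligation, against 156 to 239 CPM, and 4 were called higher. The 11 epithelial markers summed to 24.3 to 87.5 CPM after ligation, against 71.5 to 738 CPM; the ranges overlapped, and 0 of the 9 tested were called. Sdc1 also marks plasma cells, whose 8 markers summed to 1.01 to 3.16 CPM after ligation, against 3.97 to 3471 CPM in uninjured libraries. Which cells made these marker RNAs, and the part of any of these cells in the members' changes, was not tested.

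**Figure D2:**
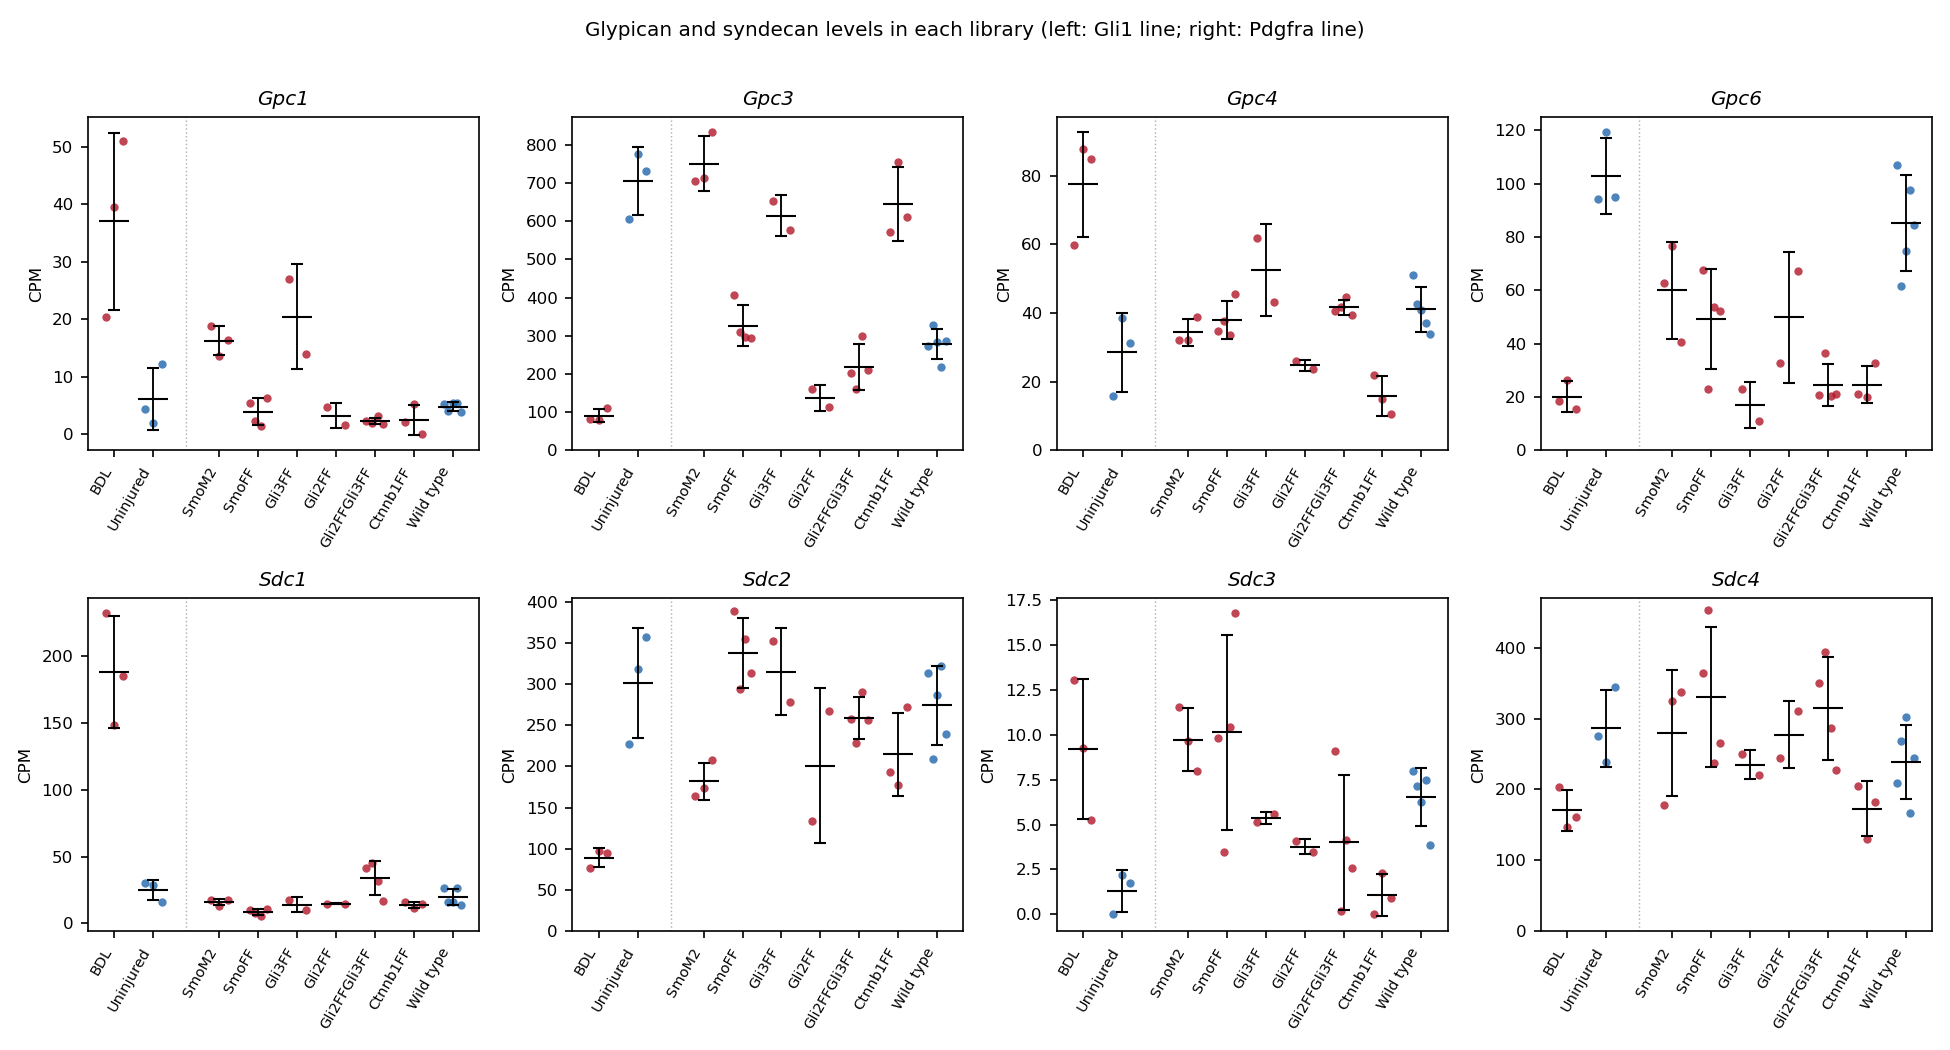
CPM of 8 members (one panel each) in all 29 libraries by group, with ligated and mutant libraries in red, uninjured and wild type libraries in blue, and bars at the mean ± SD. Sdc1 stands at 148 to 232 CPM in the ligated libraries and at most at 45.1 CPM in every other library, and Gpc3 is at 570.5 CPM or above in all libraries of 4 groups.

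Few of the genes that build and modify the chains were called after ligation. Of 14 genes of chain synthesis tested, 0 were called higher and 2 lower (median log2 fold change -0.09, against 0.07 over all genes tested), a share near that of all genes (13.6% called, 5.8% lower). They were Ugdh, the enzyme that makes UDP-glucuronic acid (-1.65, SE 0.19, edgeR adjusted p = 0.00537), and Ugp2, which makes UDP-glucose (-1.29, SE 0.29, edgeR adjusted p = 0.033). Ugdh was at 146, 146 and 199 CPM after ligation, against 573, 453 and 473 CPM in uninjured libraries, with no overlap.

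Of 13 chain modification genes tested, 1 was called higher and 0 lower (median 0.66), against 7.77% of all genes called higher and 5.8% lower. It was Hs6st2, a sulfotransferase that adds 6-O-sulfate, which was at 33.8, 63.1 and 56.9 CPM after ligation and at 0 in all 3 uninjured libraries. This made it at least 435-fold higher against the level of 3 counts per library. Of 12 turnover genes tested, 2 were higher and 1 lower (median -0.26), against the same all-gene shares. Sulf2, an extracellular enzyme that removes 6-O-sulfate, fell (-1.88, SE 0.30, edgeR adjusted p = 0.0133). Sulf2 was at 46.1, 75.6 and 81.8 CPM after ligation, against 202, 315 and 208 CPM in uninjured libraries. Mmp14, a membrane protease that can shed syndecan-1, rose (1.16, SE 0.16, edgeR adjusted p = 0.00902), as did the protease Mmp9, which had few counts in uninjured libraries (edgeR adjusted p = 0.0423). The calls of Sulf2 (-2.02 to -1.62) and Mmp14 (1.08 to 1.29) were each lost in 2 of 13 alternatives, without BDL replicate 2 or 3, that of Mmp9 in 8 of 13, and that of Ugp2 in 6 of 13, among them the fits without BDL replicate 1, 2 or 3 (-1.52 to -1.04 in all 13). Those of Ugdh and Hs6st2 held in all 13.

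Of 10 genes listed as syndecan partners, 3 were called higher and 1 lower (median -0.08), against 7.77% of all genes called higher and 5.8% lower. Actn1, an actin cross-linker, was at 188, 233 and 242 CPM after ligation, against 7.33, 5.93 and 9.59 CPM in uninjured libraries (log2 fold change 4.82, SE 0.25, edgeR adjusted p = 0.000508). Its relative Actn4 (1.01) and the integrin activator Tln1 (0.98) also rose. Sdcbp, or syntenin, which binds the syndecan tail and sorts it into exosomes, fell (-1.20, SE 0.14, edgeR adjusted p = 0.00537). Of 7 other heparan sulfate proteoglycans tested, 1 was lower, the TGF-beta co-receptor Tgfbr3 (-1.48, SE 0.22, edgeR adjusted p = 0.0106). That count is near the share of all genes called (13.6%). The Tgfbr3 call was lost without BDL replicate 3 (-1.67 to -1.32 over 13 alternatives), and those of Tln1 (0.91 to 1.12) and Actn4 (0.88 to 1.24) without any 1 BDL replicate. Those of Actn1 and Sdcbp held in all 13.

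The Pdgfra-lineage genotypes carried alleles meant for gain or loss of Hedgehog signalling or for loss of beta-catenin. In SmoFF against wild type libraries, 3 targets of Hedgehog signalling did not pass edgeR's test. They were Ptch1 (-0.05, SE 0.32, adjusted p = 0.992), Gli1 (-0.20, SE 0.58, adjusted p = 0.957) and Hhip (-2.02, SE 0.71, adjusted p = 0.168). A loss of signalling was thus not shown in SmoFF libraries. All 6 comparisons with wild type used the same 5 wild type libraries, so their results are not independent. Each Pdgfra genotype, wild type included, came in its own count matrix. Genotype and any difference between matrices cannot be told apart in any comparison of these genotypes. Across the 7 genotypes, 6 of 9 members tested differed somewhere (edgeR's quasi-likelihood test of any difference), against 32.8% of 24383 genes. They were Gpc3 (adjusted p = 1.97e-07), Gpc6 (0.000164), Gpc4 (0.000404), Sdc1 (0.00221), Gpc1 (0.012) and Sdc2 (0.0197). Sdc4 (0.0834), Sdc3 (0.12) and Gpc2 (0.509) did not pass.

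The number of members called in each comparison with wild type is read against its background. SmoM2 had 1 of 9 called, higher, against 0.205% of all genes (0.127% higher and 0.0779% lower). SmoFF had 1 of 9, lower, against 1.55% (0.287% higher and 1.26% lower). Gli2FF had 1 of 9, lower, against 5.83% (2.58% higher and 3.25% lower). Gli3FF had 1 higher and 1 lower, against 4.45% (2.09% higher and 2.36% lower). Gli2FFGli3FF had 1 of 9, lower, against 17.2% (7.6% higher and 9.56% lower). Ctnnb1FF had 1 higher and 3 lower, against 19.9% (8.04% higher and 11.9% lower). For so few members, the 1 of 9 called in Gli2FFGli3FF is close to the all-gene share and is not read as a result about the members. In Ctnnb1FF libraries all genes leaned lower, with a median log2 fold change of -0.61 over all genes tested, and their groups' fold changes are read beside that value.

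**Figure D3:**
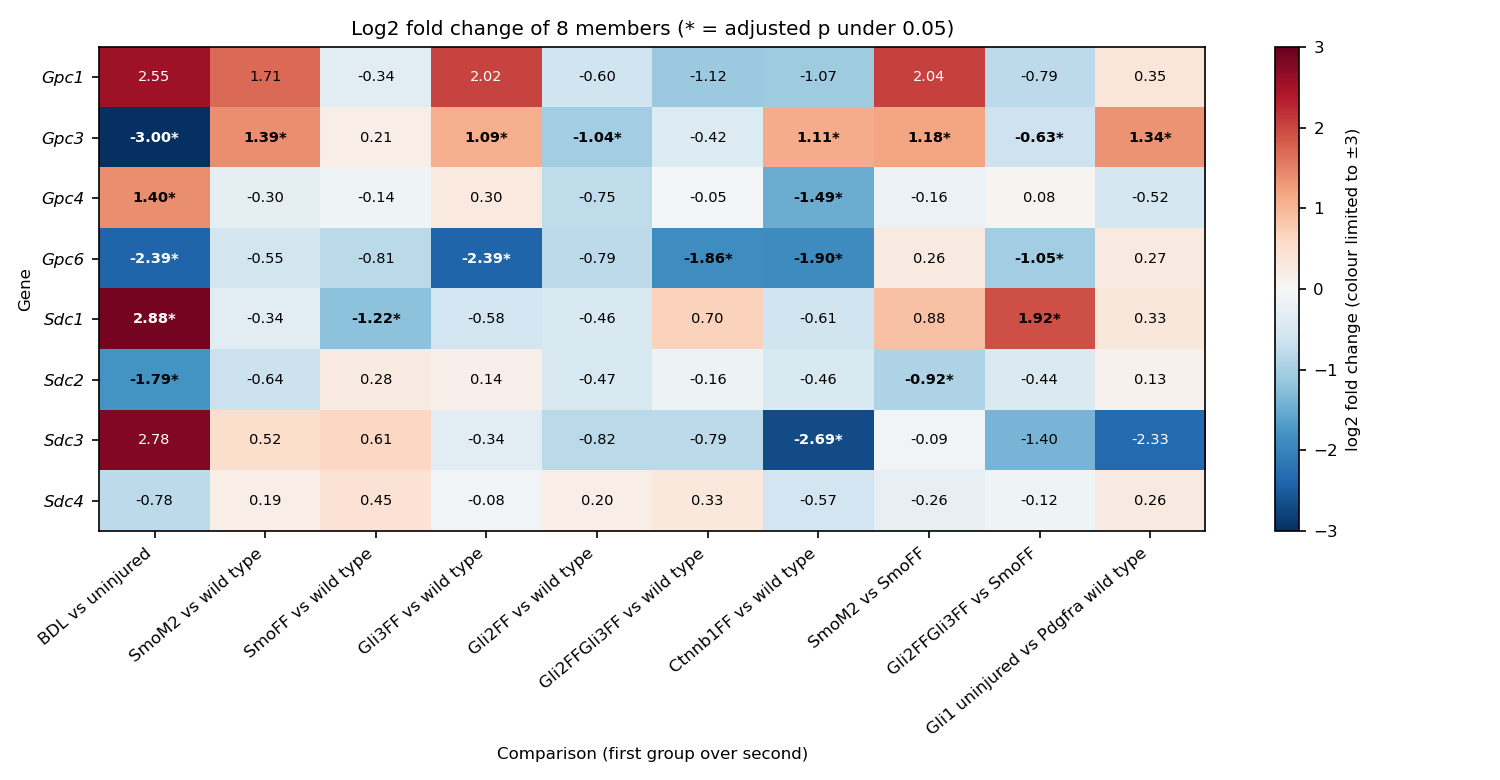
Log2 fold change of 8 members (rows) in 10 comparisons (columns), ligated, mutant or uninjured Gli1 libraries over those they were set against, with an asterisk at an adjusted p under 0.05. Gpc3 carries an asterisk in SmoM2 (1.39), Ctnnb1FF (1.11) and Gli3FF (1.09) as higher and in Gli2FF (-1.04) and after ligation (-2.995) as lower.

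Gpc3 was called in 4 of the 6 mutants, more than any other member. It was at 704, 713 and 833 CPM in SmoM2 libraries, against 273, 327, 284, 217 and 287 CPM in wild type libraries. The groups stood well apart, and the log2 fold change was 1.39 (SE 0.19, edgeR adjusted p = 0.000727), which ranked 8th of 24383 genes by p in that comparison. All libraries of both groups were low in Xist, so this difference in an X-linked gene lies within libraries of 1 Xist class. In the same SmoM2 libraries Ptch1, a target of Hedgehog signalling, averaged 324 ± 80.7 CPM, against 31.9 ± 6.68 CPM in wild type libraries. Ptch1 was also called higher in Gli3FF (1.77, SE 0.37, edgeR adjusted p = 0.00591) and Ctnnb1FF (1.499, SE 0.34, edgeR adjusted p = 0.00314), where Gpc3 was higher. The target Gli1 was called lower in Ctnnb1FF (-2.55, SE 0.71, edgeR adjusted p = 0.0148) and did not pass in Gli3FF (0.45, edgeR adjusted p = 0.791). Hhip passed in neither Ctnnb1FF (1.73, edgeR adjusted p = 0.0746) nor Gli3FF (2.25, edgeR adjusted p = 0.0967). Gli3 was also called lower in Ctnnb1FF (-1.53, SE 0.33, edgeR adjusted p = 0.00211). Ptch1 was called higher in Gli2FF too (1.27, SE 0.38, edgeR adjusted p = 0.0483), where Gpc3 was lower. The 2 Gli2FF libraries were at 30.5 and 125 CPM of Ptch1, and the lower lay within the wild type range of 21.5 to 38.25 CPM.

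Gpc3 was at 407, 308, 296 and 293 CPM in SmoFF libraries, which overlapped the wild type range, with a log2 fold change of 0.21 (SE 0.18, edgeR adjusted p = 0.696). Set directly against each other, SmoM2 libraries were higher than SmoFF libraries (log2 fold change 1.18, SE 0.20, edgeR adjusted p = 0.00247).

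The Gli mutants differed in direction. Gpc3 was at 652 and 576 CPM in Gli3FF libraries, above every wild type library, with a log2 fold change of 1.09 (SE 0.21, edgeR adjusted p = 0.00327). It was at 162 and 112 CPM in Gli2FF libraries, below every wild type library, with a log2 fold change of -1.04 (SE 0.24, edgeR adjusted p = 0.00999). Gli3 is the Gli factor best known as a repressor without Hedgehog signal, and Gli2 the one best known as an activator. In Gli2FFGli3FF libraries Gpc3 was at 202, 159, 299.9 and 211 CPM, which overlapped the wild type range, and the log2 fold change of -0.42 (SE 0.18) did not pass the test (edgeR adjusted p = 0.105).

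Each single Gli mutant rests on 2 animals. The Gli3FF call was lost without Gli3FF replicate 1 (1.02, adjusted p = 0.0807). The Gli2FF call was lost without Gli2FF replicate 2 (-0.86, adjusted p = 0.17), with wild type replicates 4 and 5 as the only controls (-0.91, adjusted p = 0.17), and among low-Xist libraries (-0.78, adjusted p = 0.134). Among such libraries Gli3FF kept a log2 fold change of 1.23 (adjusted p = 0.00782).

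In Ctnnb1FF libraries Gpc3 was at 570.5, 755 and 612 CPM, above every wild type library, with a log2 fold change of 1.11 (SE 0.19, edgeR adjusted p = 0.000247). This rise ran against the all-gene median of -0.61. No Ctnnb1FF library and every wild type library was low in Xist, so genotype and Xist class cannot be told apart for the X-linked Gpc3 and Gpc4 in this comparison. Over all 9 groups, Gpc3 fell into a high set of SmoM2 (750.1 CPM), uninjured Gli1 (705), Ctnnb1FF (646) and Gli3FF (614), whose neighbours overlapped, and a lower set. Between Gli3FF and the next group, SmoFF (326 CPM), there was no overlap. SmoFF, wild type (278), Gli2FFGli3FF (218) and Gli2FF (137) overlapped their neighbours, and the ligated group (90.9) lay below Gli2FF without overlap.

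Gpc6 was the member called in the most mutants after Gpc3, always lower. It was at 20.95, 20.1 and 32.6 CPM in Ctnnb1FF libraries, against 107, 61.7, 74.6, 97.8 and 84.5 CPM in wild type libraries, with a log2 fold change of -1.90 (SE 0.36, edgeR adjusted p = 0.00074). It was at 22.99 and 10.8 CPM in Gli3FF libraries (-2.39, SE 0.44, edgeR adjusted p = 0.00188), and the call was lost without Gli3FF replicate 2 (-1.96, adjusted p = 0.0666). It was at 20.6, 36.4, 20.2 and 21.1 CPM in Gli2FFGli3FF libraries (-1.86, SE 0.33, edgeR adjusted p = 0.000355), a call that held in 20 of 20 alternatives. All libraries of these 3 mutants lay below all wild type libraries.

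The remaining mutants had intermediate Gpc6 levels. SmoFF libraries were at 67.6, 23.01, 53.8 and 52.1 CPM (-0.81, adjusted p = 0.217), SmoM2 libraries at 62.9, 76.5 and 40.5 CPM (-0.55, adjusted p = 0.857) and Gli2FF libraries at 32.6 and 67.2 CPM (-0.79, adjusted p = 0.274). Each of these overlapped the wild type range, and none passed edgeR's test. Gpc3 and Gpc6 thus moved in opposite directions in Ctnnb1FF and Gli3FF libraries and both fell after ligation.

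Gpc4, the neighbour of Gpc3 on chromosome X, was called in 1 genotype. It was at 21.9, 14.8 and 10.5 CPM in Ctnnb1FF libraries, against 51.2, 42.5, 40.8, 37.1 and 33.8 CPM in wild type libraries. All 3 mutants lay below all controls, with a log2 fold change of -1.49 (SE 0.23, edgeR adjusted p = 8.83e-05). Gpc4 was also below all wild type libraries in Gli2FF, at 25.9 and 23.6 CPM, but its log2 fold change of -0.75 did not pass edgeR's test (adjusted p = 0.0937). In SmoM2 libraries, where Gpc3 rose, Gpc4 was at 32.1, 32.1 and 38.8 CPM (-0.30, adjusted p = 0.973).

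Gpc1 had its highest genotype levels in Gli3FF, at 27.0 and 13.99 CPM, and in SmoM2, at 18.8, 13.7 and 16.4 CPM, against 5.28, 4.07, 5.51, 5.42 and 3.88 CPM in wild type libraries. Neither group overlapped the wild type range. The log2 fold changes of 2.02 in Gli3FF (SE 0.79, edgeR adjusted p = 0.172) and 1.71 in SmoM2 (SE 0.72, edgeR adjusted p = 0.578) did not pass the test. In Gli2FFGli3FF libraries Gpc1 was at 2.35, 2.02, 3.14 and 1.81 CPM, below all wild type libraries, and this did not pass either (-1.12, adjusted p = 0.258). Gpc2, a glypican of developing neurons, was at most at 2.17 CPM in any library and was called in no comparison.

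Sdc1 was lowest in SmoFF libraries, at 9.78, 8.01, 5.57 and 10.9 CPM, against 26.2, 16.3, 15.7, 26.4 and 13.9 CPM in wild type libraries. The groups did not overlap, with a log2 fold change of -1.22 (SE 0.31, edgeR adjusted p = 0.0457). The call was lost in 14 of 20 alternatives (log2 fold change -1.54 to -1.07, adjusted p up to 0.723), among them the fits without any 1 SmoFF replicate (-1.37 to -1.07) or without wild type replicate 1, 2, 3 or 4 (-1.29 to -1.10). SmoFF libraries also had mesothelium markers summing to 531 to 1215 CPM, against 139 to 376 CPM in wild type libraries. Their 7 fibroblast markers summed to 19625 to 21798 CPM, against 27809 to 39107 CPM in wild type libraries, and 4 of the 7 were called lower. The part of either in the Sdc1 level was not tested.

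Sdc1 was at 41.7, 45.1, 31.4 and 16.8 CPM in Gli2FFGli3FF libraries, which overlapped the wild type range (log2 fold change 0.70, SE 0.30, edgeR adjusted p = 0.102). Against SmoFF, all 4 Gli2FFGli3FF libraries were higher, with a log2 fold change of 1.92 (SE 0.33, edgeR adjusted p = 0.000274). That call was lost among low-Xist libraries (1.31), which left 1 Gli2FFGli3FF library. This library, replicate 4, was only just under the Xist cut, at 4.58 CPM of the total counts. Plasma and B cell markers summed to 9.78, 7.93, 6.15 and 1069 CPM in the 4 Gli2FFGli3FF libraries, in the order of the Sdc1 values, and their part in the Sdc1 level was not tested. In the other genotypes Sdc1 was at 9.78 to 17.8 CPM and passed no test.

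Sdc2 had its lowest mean of the Pdgfra genotypes in SmoM2, where it overlapped Gli2FF (134 and 268 CPM). It was at 164, 174 and 207 CPM in SmoM2 libraries, against 313, 209, 287, 322 and 239.8 CPM in wild type libraries. The groups did not overlap, but the log2 fold change of -0.64 (SE 0.21) did not pass the test (edgeR adjusted p = 0.372). SmoFF libraries were at 389, 294, 354 and 313 CPM, and SmoM2 libraries were lower than these, with a log2 fold change of -0.92 (SE 0.22, edgeR adjusted p = 0.0284). This call was lost in 6 of 16 alternatives, among them the fits without SmoM2 replicate 1 (-0.85, adjusted p = 0.134), 2 (-0.90, 0.126) or 3 (-1.03, 0.0552), or without SmoFF replicate 1 (-0.86, 0.0787) or 3 (-0.91, 0.0711).

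Sdc3 was at 0, 2.33 and 0.937 CPM in Ctnnb1FF libraries, against 7.99, 7.17, 6.26, 7.45 and 3.88 CPM in wild type libraries. The groups did not overlap, with a log2 fold change of -2.69 (SE 0.94, edgeR adjusted p = 0.0462). The call was lost in 11 of 18 alternatives (-5.15 to -1.97), among them the fits with a replicate block (-2.66, adjusted p = 0.109), without Ctnnb1FF replicate 1 (-1.97, 0.123) or 3 (-2.44, 0.132), and without wild type replicate 1, 2, 3 or 4. Antisense genes overlap Sdc3, so its counts are uncertain without strand. Sdc4 was called in no genotype, and its ranges overlapped the wild type range of 167 to 302 CPM in each. Its log2 fold changes were between -0.57 in Ctnnb1FF, near the all-gene median of that comparison, and 0.45 in SmoFF libraries.

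Members with libraries that did not overlap wild type numbered 4 of 9 in SmoM2 (8.23% of all genes), 1 of 9 in SmoFF (4.79%), 4 of 9 in Ctnnb1FF (24.9%), 2 of 9 in Gli2FF (35%), 3 of 9 in Gli3FF (23.8%) and 2 of 9 in Gli2FFGli3FF (19.5%). Between SmoM2 and SmoFF, 2 of 9 members were called, against 2.63% of all genes (1.74% higher and 0.89% lower): Gpc3 was higher and Sdc2 lower in SmoM2. Members without overlap between those groups numbered 4 of 9, against 16.4% of all genes. Between Gli2FFGli3FF and SmoFF, 3 of 9 were called, against 16.5% of all genes (7.68% higher and 8.83% lower), and 2 of 9 did not overlap, against 20% of all genes. Beside Sdc1, these were Gpc3 (-0.63, SE 0.19, edgeR adjusted p = 0.0259) and Gpc6 (-1.05, SE 0.33, edgeR adjusted p = 0.0318), both lower in Gli2FFGli3FF. The Gpc6 call was lost in 10 of 17 alternatives, the replicate block included (-1.03, adjusted p = 0.0682). The Gpc3 call was lost in 6 of 17, among them the fits without SmoFF replicate 1 (-0.55, 0.0631) and without Gli2FFGli3FF replicate 1 (-0.52, 0.114), 2 (-0.43, 0.159) or 4 (-0.62, 0.0563).

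Markers listed for other cell types, and library quality, differed with some genotypes. In Gli3FF libraries mesothelium markers summed to 40.7 to 54.6 CPM, against 139 to 376 CPM in wild type libraries, and smooth muscle and pericyte markers to 659 to 712 CPM, against 243 to 370.3 CPM. In Ctnnb1FF libraries mesothelium markers summed to 24.4 to 163 CPM and plasma and B cell markers to 8.72 to 4714 CPM, against 1.55 to 7.82 CPM for the second list in wild type libraries. Smooth muscle and pericyte markers summed to 515 to 589 CPM in SmoM2, 380.2 to 638 CPM in Ctnnb1FF and 419 to 804 CPM in Gli2FFGli3FF libraries, each above every wild type library. Of these 8 markers, 1 was called higher in SmoM2, 2 higher and 1 lower in Ctnnb1FF, 2 higher in Gli3FF and 2 higher in Gli2FFGli3FF. Mesothelium markers summed to 219 to 713 CPM in SmoM2 and 219 to 668 CPM in uninjured Gli1 libraries. The part of these cells in the members' levels was not tested.

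**Figure D4:**
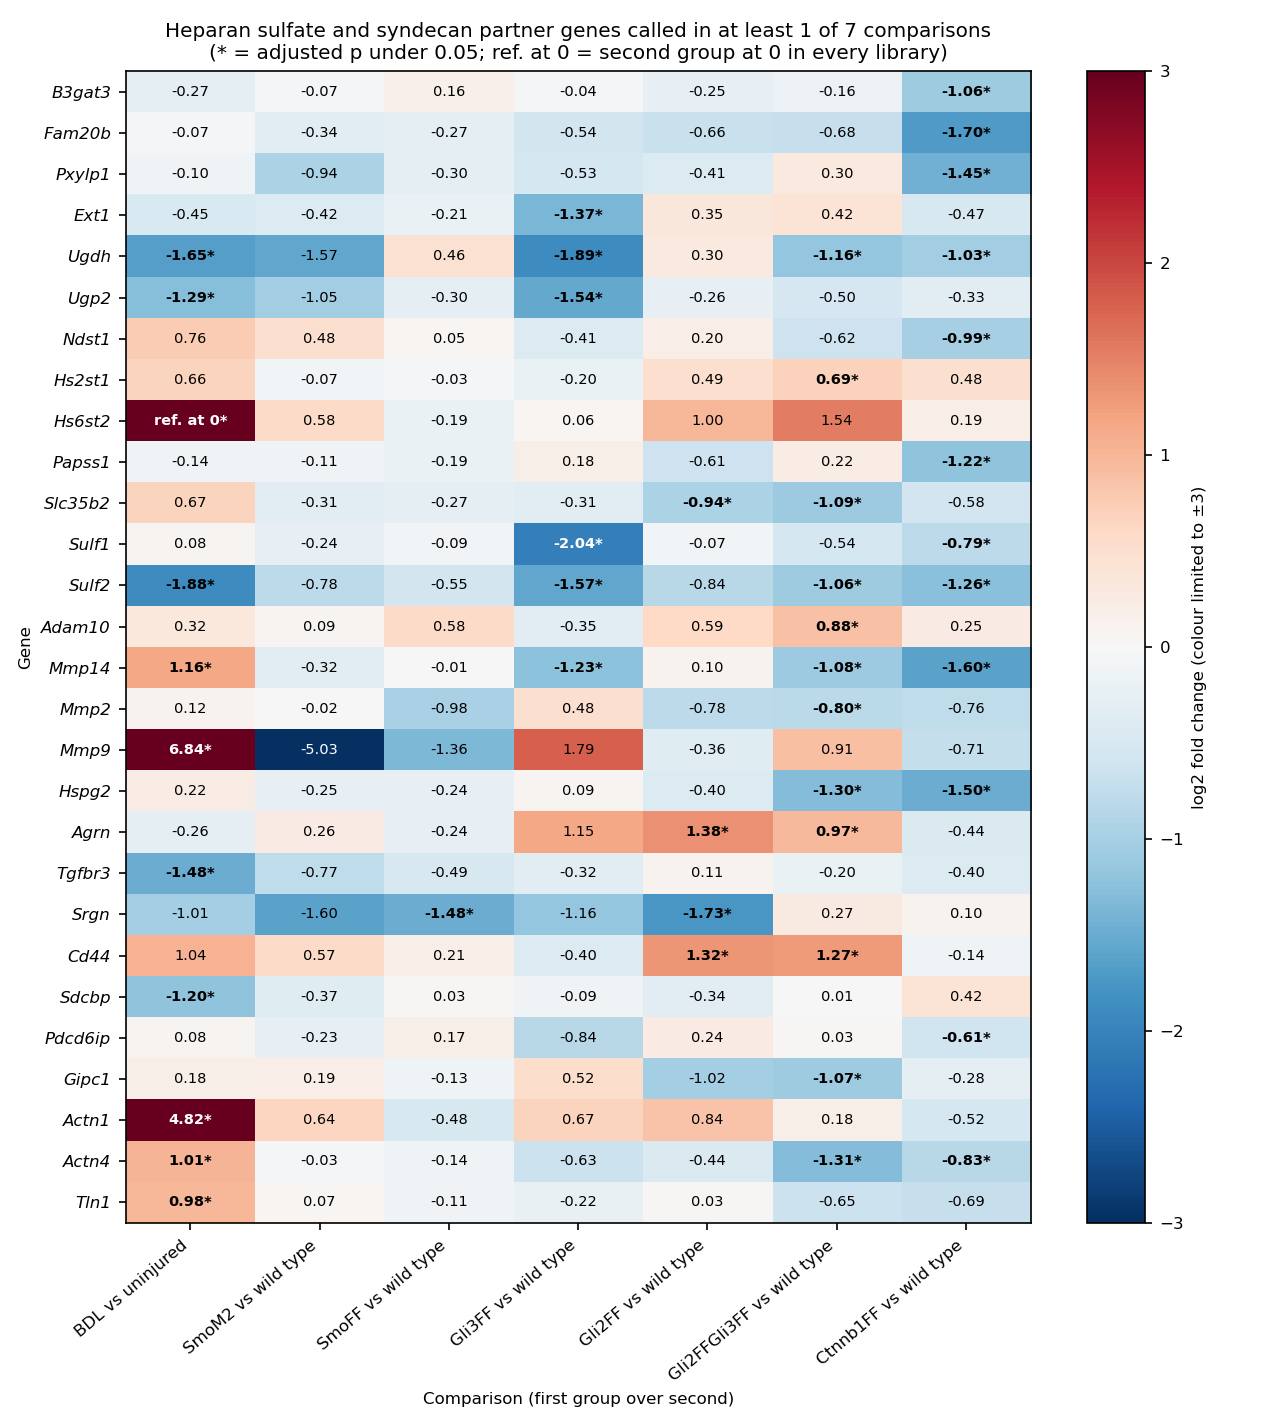
Log2 fold change of the 28 genes of heparan sulfate synthesis, modification and turnover, other proteoglycans and syndecan partners (of 67 listed) that were called in at least 1 of 7 comparisons, with an asterisk at an adjusted p under 0.05. Mmp14, Sulf2 and Ugdh are each called in 4 of the 7 comparisons, Sulf2 and Ugdh always lower and Mmp14 higher after ligation (1.16) and lower in 3 mutants.

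Ugdh, Sulf2 and Mmp14 were each called in 4 of the 7 comparisons with wild type or uninjured libraries. Beside ligation these were Ctnnb1FF, Gli3FF and Gli2FFGli3FF, in all of which Ugdh (-1.03, -1.89 and -1.16), Sulf2 (-1.26, -1.57 and -1.06) and Mmp14 (-1.60, -1.23 and -1.08) fell. The edgeR adjusted p was between 4.54e-05 for Mmp14 in Ctnnb1FF and 0.0337 for Ugdh in Ctnnb1FF. Ugdh was at 56.9 and 101 CPM in Gli3FF libraries, against 291, 205, 273, 358 and 282 CPM in wild type libraries, with no overlap. The Ugdh call was lost in 1 of 18 alternatives in Gli3FF (without Gli3FF replicate 1), in 9 of 18 in Ctnnb1FF (-1.22 to -0.82, each single Ctnnb1FF replicate left out among them) and in 3 of 20 in Gli2FFGli3FF (without replicate 2 of that group among them). In Gli3FF the Mmp14 call (-1.43 to -1.13) was lost without either Gli3FF replicate and the Sulf2 call (-1.94 to -1.20) without Gli3FF replicate 2.

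In SmoM2 libraries Ugdh was at 108, 78.7 and 108 CPM, against 393, 355, 402 and 425 CPM in SmoFF libraries. The groups stood far apart, with a log2 fold change of -2.03 (SE 0.36, edgeR adjusted p = 0.00327). In Gli2FF libraries Ugdh was at 109 and 595 CPM, and was not called.

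Counts over the lists were as follows. In SmoM2, 0 genes of the 5 lists were called in either direction by edgeR, beside a background of 0.205%. In SmoFF, 1 was called, the granule proteoglycan Srgn (-1.48, SE 0.34, edgeR adjusted p = 0.0297), lost in 9 of 20 alternatives (-1.77 to -1.25). In Gli3FF, 3 of 14 chain synthesis genes were lower and 0 higher (median -0.54, against -0.22 over all genes), and 3 of 12 turnover genes were lower and 0 higher (median -0.95), against 2.36% of all genes called lower. Beside Ugdh, the chain synthesis genes were Ugp2 (-1.54) and Ext1 (-1.37), a subunit of the polymerase that extends the chain. Beside Sulf2 and Mmp14, the turnover gene was Sulf1, at 31.5 and 50.2 CPM in Gli3FF libraries, against 166, 175, 180.3, 144 and 147 CPM in wild type libraries (-2.04, SE 0.32, edgeR adjusted p = 0.00038). The Ugp2 call was lost without Gli3FF replicate 1 (-1.62 to -1.45 over 18 alternatives) and the Ext1 call without replicate 2 (-1.55 to -1.15), and the Sulf1 call held in all 18.

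In Ctnnb1FF, 4 of 14 chain synthesis genes were lower and 0 higher (median -0.81, against -0.61 over all genes), and 2 of 15 modification genes and 3 of 12 turnover genes were lower and 0 higher (medians -0.58 and -0.80). Of all genes, 11.9% were called lower, so the modification count is near the background. The called genes included Fam20b, the xylose kinase that lets chain growth proceed (-1.70), Pxylp1, the phosphatase that acts after it (-1.45), B3gat3, which completes the linker (-1.06), and Ndst1, which starts N-sulfation (-0.99). Papss1, which makes the sulfate donor, was also lower (-1.22), as was the basement membrane proteoglycan Hspg2 (-1.50). Of the syndecan partner list, Actn4 (-0.83) and Pdcd6ip (-0.61) were lower than in wild type libraries. Pdcd6ip thus lay at the all-gene median of -0.61. Of all these called genes, Fam20b held in all 18 alternatives, the calls of Pxylp1 and B3gat3 were lost in 5 each, those of Ndst1, Papss1 and Hspg2 in 3 each, that of Actn4 in 2 and that of Pdcd6ip in 12. Each of the last 7 was lost without at least 1 of the Ctnnb1FF replicates.

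In Gli2FFGli3FF, 1 of 14 chain synthesis genes was lower, 1 of 15 modification genes was higher and 1 lower, and 1 of 12 turnover genes was higher and 3 lower (medians -0.13, 0.22 and -0.67, against -0.35 over all genes). Of all genes 17.2% were called, 7.6% higher and 9.56% lower, and the synthesis and modification counts lie at or below that share. Slc35b2, which carries the sulfate donor into the Golgi, fell (-1.09, SE 0.19, edgeR adjusted p = 0.000393), and Hs2st1, a 2-O-sulfotransferase, rose (0.69). Adam10, a sheddase, rose (0.88), and Mmp2 fell (-0.80). Cd44 (1.27), which carries heparan sulfate in some splice forms, and agrin, Agrn (0.97), rose, and Hspg2 (-1.30) fell. In Gli2FF, Cd44 (1.32) and Agrn (1.38) also rose, and Srgn (-1.73) and Slc35b2 (-0.94) fell. These 4 Gli2FF calls were lost without either Gli2FF replicate. In Gli2FFGli3FF the calls of Agrn (0.78 to 1.27) and Mmp2 (-0.99 to -0.27) were lost in 12 and 9 of 20 alternatives, that of Hspg2 in 3 (without replicate 1 among them) and the other calls named in at most 3, and that of Slc35b2 held in all 20. Both groups share wild type controls and the Gli2FF allele.

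The genes with the most similar patterns to each member were sought over the 23 Pdgfra libraries, as Pearson's r of log2 CPM among 8187 genes. The libraries share controls, depth and genotype groups, so these values describe and test nothing. For Gpc3 the 3 highest were Icosl (0.92), Fmod (0.89) and Septin4 (0.87). For Gpc6 they were Rftn1 (0.88), Ston2 (0.86) and Antxr1 (0.85), and for Gpc4 Tor4a (0.86), Inf2 (0.85) and Papss1 (0.85). For Gpc1 they were Ptk7 (0.88), Tspan17 (0.87) and Cyb5r1 (0.81). For Sdc1 they were Col3a1 (0.74), Nedd4 (0.72) and Nup93 (0.71), for Sdc2 Ubap1 (0.78), Sfrp4 (0.77) and Ctsh (0.77), for Sdc3 Mocs1 (0.90), Pygo2 (0.89) and Wdr60 (0.85), and for Sdc4 H2-Ab1 (0.84), Slc9a3r1 (0.84) and Nectin2 (0.83). Among members, r was highest between Gpc1 and Gpc4 (0.61) and lowest between Gpc3 and Sdc1 (-0.34), and the X-linked neighbours Gpc3 and Gpc4 had an r of -0.20.

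Uninjured Gli1-lineage cells and wild type Pdgfra-lineage cells were also compared, and most members were not called. Of 9 members tested in a fit of all 29 libraries, 1 was called, higher, against 4.28% of 25357 genes (1.46% higher and 2.82% lower). Gpc3 was at 606, 777 and 731 CPM in uninjured Gli1 libraries, against 273, 327, 284, 217 and 287 CPM in wild type Pdgfra libraries, with a log2 fold change of 1.34 (SE 0.19, edgeR adjusted p = 7.29e-05) and no overlap. Sdc3 was lower in uninjured Gli1 libraries without overlap (-2.33, SE 1.05) and did not pass the test (edgeR adjusted p = 0.193). Libraries of 3 of 9 members did not overlap between these groups, against 13.2% of all genes. The Cre line, the count matrix and the Xist class differ together between these groups and cannot be told apart.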

How the data were processed

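Raw counts of reads per gene, deposited by the authors in 8 matrices, were used as they stand; they are on mouse genome build mm10, per the submitters' processing notes, and the sources used here name no aligner, counter, gene annotation or strand setting (not given in the sources). Per the labels' protocols, full-length cDNA was made from about 1000 sorted cells per animal, and the spread behind each p-value is that between animals. Members, gene lists, marker lists and tests were chosen with earlier results of these data known. Wild type replicate 5 is called SmoFF in 1 of its labels and wild type in its title and genotype, and was kept as wild type. Gene positions are those of GENCODE M21.

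Counts were filtered by edgeR's filterByExpr and scaled by TMM over the libraries of the fit, and CPM is the count over the TMM-scaled library total, with 1 scaling over all 29 libraries. The edgeR quasi-likelihood test (glmQLFit, glmQLFTest; R 4.3.3, edgeR 4.0.16, limma 3.58.1, DESeq2 1.42.0) was fitted to the 6 Gli1 libraries, the 23 Pdgfra libraries or all 29, with group as the term and Benjamini-Hochberg adjustment over all genes tested, at a threshold of 0.05. Of the 10 members, 8 were tested in the Gli1 fit and 9 in the others. Alternatives were no filter, a minimum of 10 counts, RLE scaling, DESeq2, voom, a replicate block, fits of the compared groups only, parts of the wild type group, each replicate left out and, chosen after seeing the data, libraries of low Xist only (under 5 CPM of the total counts, not scaled). The fit was also run on counts simulated with the same spread for every gene. That run checks the code and not the calls made here. Named genes were the 10 members and the genes the alleles target with Ptch1, Gli1 and Hhip. To these were added up to 4 called genes of each list with the smallest p in a comparison, and the 3 genes most like each member. At these depths 3 counts bound what a 0 can show, for counting error only. No 2 libraries of a group agreed within sampling noise.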

Additional observations from a re-analysis of the deposited data

Results flagged for a closer look

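In groups of 4 or 5 libraries, 5 of 28 sets of a member's values had 1 library far from the rest by Dixon's test, where chance flags about 1 in 20. That rate does not hold for Gpc2 and Gpc5, whose other values in a set are at or near 0, so that a few counts stand apart by construction. Gpc3 was at 407 CPM in SmoFF replicate 1, against 293 to 308 CPM in the other SmoFF libraries. Gpc6 was at 36.4 CPM in Gli2FFGli3FF replicate 2, against 20.2 to 21.1 CPM in the others of that group. Gpc2 was at 2.17 CPM in wild type replicate 2, against 0.0444 to 0.272 CPM in the other wild type libraries, and at 0.165 CPM in Gli2FFGli3FF replicate 2, against 0 in the others. Gpc5 was at 1.74 CPM in Gli2FFGli3FF replicate 3, against 0 in the others.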

How the results depend on the processing

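No member's call reversed direction in any alternative run; of the called genes in the other lists, Hspg2 in Gli2FFGli3FF against SmoFF did among libraries of low Xist (0.20). The calls of Gpc3, Gpc6, Sdc1 and Sdc2 after ligation held in 13 of 13 alternatives each, Gpc3 in SmoM2 and Gpc3, Gpc4 and Gpc6 in Ctnnb1FF in 18 of 18 each, and Gpc3 in SmoM2 against SmoFF in 16 of 16.

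Members called in SmoFF numbered 1, with 0 to 1 on leaving out 1 library, and 0 with no filter, RLE scaling, voom, only the compared groups, wild type replicates 4 and 5 as controls or libraries of low Xist. In SmoM2 the count of 1 became 3 with voom and 2 with only the compared groups. In Gli2FF the count of 1 became 4 with voom, 2 with only the compared groups, 2 with wild type replicates 1 to 3, 0 with replicates 4 and 5, 0 with low Xist, and 0 to 1 on leaving out 1 library. In Gli3FF the count of 2 became 1 to 2, in Gli2FFGli3FF the count of 1 became 1 to 2 and in SmoM2 against SmoFF the count of 2 became 1 to 2 on leaving out 1 library. Gli2FFGli3FF had 2 with no filter and 2 with voom. In Gli2FFGli3FF against SmoFF the count of 3 became 1 to 3 on leaving out 1 library, 1 with only the compared groups and 0 with low Xist. The causes were not tested. Where a setting leaves a group with 1 library (Gli2FF or Gli3FF without a replicate, or Gli2FF, Gli3FF and Gli2FFGli3FF among libraries of low Xist), that library is assumed to vary like the other groups. 

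Same-numbered libraries did not deviate together in every comparison. Their r was -0.04 to -0.02 after ligation and -0.10 to 0.15 in SmoFF against wild type. In Gli2FFGli3FF against SmoFF it was 0.006 to 0.12, and -0.08 to 0.06 for other pairs. The labels give the replicate number no meaning, and whether it marks a shared batch was not tested. With the replicate block, members called were 4 after ligation, 1 in SmoFF, 1 in SmoM2, 3 in Ctnnb1FF, 1 in Gli2FF, 2 in Gli3FF, 1 in Gli2FFGli3FF, 2 in SmoM2 against SmoFF and 2 in Gli2FFGli3FF against SmoFF.

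Counts over all genes moved more than 1.5 times: after ligation 2326, with 377 without BDL replicate 3, 428 with the block and 3542 in DESeq2; SmoFF 377, with 19 to 1122 over parts of the wild type group; SmoM2 50, with 1456 in voom; Ctnnb1FF 4852, with 3051 without Ctnnb1FF replicate 2; Gli2FF 1421, with 179 on leaving out 1 library and 5731 in voom; Gli3FF 1085, with 319 on leaving out 1 library and 2372 in DESeq2; Gli2FFGli3FF 4183, with 1019 with low Xist; SmoM2 against SmoFF 641, with 240 on leaving out 1 library and 1626 in voom; Gli2FFGli3FF against SmoFF 4027, with 697 with low Xist; any genotype difference 7998, with 13297 in voom; uninjured Gli1 against wild type Pdgfra 1085, with 2569 in DESeq2.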
